A study of Mus musculus with 10 samples.

Results

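The sites described here lie inside protein-coding genes but away from their ends. In ATAC-seq a transposase cuts DNA where chromatin is open, so the signal of a site measures how accessible that stretch of chromatin was in the cells. A site was taken when it overlapped the body of a protein-coding gene (GRCm38) and lay more than 1 kb from either end of every protein-coding gene. The rule used positions only, and it kept 16800 of the 39657 sites of the deposited table (42.4%), in 6283 host genes. Of the other nuclear sites, 9825 lay within 1 kb of a gene end and 13030 lay between genes.

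The cells were mouse Th17 cells, helper T cells that make IL-17. All came from naive CD4+ T cells of mice whose pyruvate dehydrogenase gene is floxed, cultured for 3 days on anti-CD3 and anti-CD28 with IL-6, TGFβ and an antibody against IFNγ. The 10 libraries fell into KO with acetate (n = 2), WT with acetate (n = 2), KO untreated (n = 3) and WT untreated (n = 3). KO cells carried CD4-Cre, a recombinase driven by the regulatory sequence of Cd4 in T cells, and WT cells carried the floxed gene without Cre. Acetate cells were differentiated in 10 mM sodium acetate. Nothing in the labels ties the replicates to different animals, and the p-values measure only how far these libraries spread.

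Inside mitochondria, pyruvate dehydrogenase makes acetyl-CoA out of pyruvate. The carbon can leave as citrate and serve lipid synthesis and histone acetylation in the rest of the cell. Acetate gives cells another way to make acetyl-CoA. Open sites inside genes are mostly enhancers, short stretches bound by transcription factors that act on a promoter at a distance, and some are starts of shorter transcripts of the same gene. Introns of long genes also hold enhancers of neighbouring genes, so the host gene of a site is its position and not a known target.

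The sites were narrow and spread over many hosts. Of the 16800, 16561 (98.6%) shared a single width, and the widest was 554 bp. Their median distance to the nearest end of a protein-coding gene was 14.2 kb, the farthest lay 709 kb away, and the median host length was 80.0 kb. Of the hosts, 3135 held a single site, while 243 hosts with 10 or more held 3831 sites (22.8%). For 13465 sites (80.1%) RefSeq gave the strand of the host, and their median position was 41.7% of the way from the 5' end, with 3432 in the first 20% of the host and 1949 in the last 20%. At the 1 kb limit, 179 sites within 100 bp inside it had a median signal of 88.4 in KO untreated cells and 151 in WT untreated cells. The 208 sites within 100 bp outside it had 84.7 in KO untreated cells and 160 in WT untreated cells.

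The clearest subset by sequence was formed by 758 sites (4.51%, in 715 hosts) that overlapped an annotated internal start of their own host, that is the 250 bases before to 50 bases after a RefSeq transcription start. Below are the bases of such sites that lie before the start, read 5' to 3' on the strand of the gene from RefSeq (GRCm38.p6). They were chosen after their values were seen: Fam214b and Iffo2 for high signal, Ikzf1, Foxp1 and Satb1 as lymphoid transcription factors, and Plaur, Gpr146, Il1rn and Six3 for their difference between KO and WT. Capitals mark matches on either strand to the GC box GGGCGG, the CCAAT box, the ETS core CCGGAA, the AP-1 motif TGANTCA, the RUNX motif TGTGGT and the CRE motif TGACGTCA. The stretches are chr4:43040307-43040507 (minus strand, Fam214b), chr4:139574470-139574581 (plus, Iffo2), chr11:11689961-11690161 (plus, Ikzf1), chr6:99028299-99028484 (minus, Foxp1) and chr17:51826589-51826787 (minus, Satb1). The other 4 are chr7:24462377-24462482 (plus, Plaur), chr5:139389770-139389903 (plus, Gpr146), chr2:24345239-24345370 (plus, Il1rn) and chr17:85620643-85620833 (plus, Six3).
Fam214b: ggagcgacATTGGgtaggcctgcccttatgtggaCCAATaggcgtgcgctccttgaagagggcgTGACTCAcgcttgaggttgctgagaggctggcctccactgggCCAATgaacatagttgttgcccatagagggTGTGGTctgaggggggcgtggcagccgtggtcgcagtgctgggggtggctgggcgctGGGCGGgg
Iffo2: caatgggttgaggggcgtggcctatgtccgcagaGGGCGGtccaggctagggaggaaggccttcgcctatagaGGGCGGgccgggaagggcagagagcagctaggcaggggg
Ikzf1: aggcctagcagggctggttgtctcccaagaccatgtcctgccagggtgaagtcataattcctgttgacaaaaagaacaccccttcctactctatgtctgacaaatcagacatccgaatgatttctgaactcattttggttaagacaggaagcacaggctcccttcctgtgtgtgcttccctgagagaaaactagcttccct
Foxp1: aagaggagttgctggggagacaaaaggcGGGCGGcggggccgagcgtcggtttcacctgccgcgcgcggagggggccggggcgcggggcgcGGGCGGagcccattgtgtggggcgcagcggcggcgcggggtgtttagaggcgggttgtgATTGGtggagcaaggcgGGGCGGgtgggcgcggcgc
Satb1: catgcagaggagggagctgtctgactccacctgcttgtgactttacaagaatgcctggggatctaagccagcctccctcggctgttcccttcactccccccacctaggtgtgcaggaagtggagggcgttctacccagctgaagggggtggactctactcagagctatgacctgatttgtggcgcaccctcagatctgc
Plaur: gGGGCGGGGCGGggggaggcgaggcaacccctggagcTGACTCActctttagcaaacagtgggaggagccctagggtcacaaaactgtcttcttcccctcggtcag
Gpr146: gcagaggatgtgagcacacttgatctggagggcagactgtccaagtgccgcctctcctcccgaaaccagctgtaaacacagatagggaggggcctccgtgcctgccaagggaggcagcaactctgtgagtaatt
Il1rn: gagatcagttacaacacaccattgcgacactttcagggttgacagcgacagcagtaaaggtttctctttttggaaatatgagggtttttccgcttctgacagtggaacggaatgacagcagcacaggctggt
Six3: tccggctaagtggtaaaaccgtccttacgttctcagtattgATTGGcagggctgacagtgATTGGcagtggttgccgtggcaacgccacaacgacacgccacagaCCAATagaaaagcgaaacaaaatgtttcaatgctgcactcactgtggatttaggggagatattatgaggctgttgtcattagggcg
The Fam214b stretch held 10 CpG dinucleotides and matches to 4 of the motifs, among them 3 CCAAT boxes and an AP-1 motif. Foxp1 held 27 CpG and 3 GC boxes. Plaur held 2 GC boxes that share 1 base, and an AP-1 motif. Ikzf1, Satb1, Gpr146 and Il1rn held between 1 and 4 CpG and none of the motifs in these letters.

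The deposited values are spaced in steps, and with each library's step taken as 1 read 100.0% of its values came out whole within 0.001 of a read. No source used here states this factor, so the read numbers are estimates. On them, intragenic sites took 1178078 to 4780000 reads per library, the median site 44.5 to 190 reads, and the shallowest library was WT acetate library 1. All 9 Th17 marker genes and all 7 CD4 T cell marker genes had sites within 10 kb, as did 5 of 6 B cell, 2 of 6 myeloid, 2 of 3 NK cell and 0 of 2 CD8 T cell marker genes. Summed signal at the 60 sites of the Th17 markers was 7723 to 9863 in KO untreated and 12845 to 16847 in WT untreated libraries, a mean per site of 129 to 164 in KO and 214 to 281 in WT. At the 23 sites of the B cell markers it was 2303 to 2983 in KO untreated and 3654 to 4590 in WT untreated libraries, a mean per site of 100.1 to 130 in KO and 159 to 200 in WT. The 4 myeloid sites had a mean of 149 to 197 in KO untreated and 234 to 285 in WT untreated libraries, as high per site as the Th17 markers. Whether other cells contribute to the signal was not tested. Column names begin with 1 of 2 prefixes, ATAC1 or ATAC2, which no source used here explains: all KO untreated libraries and WT untreated libraries 1 and 2 carry the first, and WT untreated library 3 and all acetate libraries carry the second. WT untreated library 3 and KO acetate library 2 are names used here: their columns carry the numbers 4 and 3, which no sample title of their groups has, and only the group was taken from the column name. Acetate and prefix therefore cannot be told apart in KO cells, and fewer cells with an open site cannot be told apart from less opening per cell anywhere in these bulk libraries.

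Intragenic sites had about the same signal as intergenic sites and far less than gene ends in every group. The median signal of an intragenic site was 121 in KO with acetate, 136 in WT with acetate, 83.2 in KO untreated and 138 in WT untreated cells. For gene-end sites the medians were 323 in KO with acetate, 357 in WT with acetate, 206 in KO untreated and 372 in WT untreated cells. By library, the intragenic median was 130 and 112 in KO acetate, 137 and 133 in WT acetate, 75.1, 78.5 and 97.0 in KO untreated, and 155, 132 and 127 in WT untreated cells. KO untreated libraries all lay below the other 7, but this level depends on the factors by which the authors divided each library.

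Shares of signal and gaps between medians do not depend on those factors, and they were compared in 36 exact permutation tests. With so few libraries no such test could reach an adjusted p under 0.05, so they do not show that the groups are alike. Intragenic sites took 34.5 ± 0.839% of the nuclear signal in KO with acetate, 34.8 ± 1.58% in WT with acetate, 35.2 ± 0.249% in KO untreated and 35.0 ± 2.33% in WT untreated cells (SD). KO and WT untreated cells differed by 0.182 percentage points in this share (exact permutation test over libraries, two-sided p = 0.9, adjusted p = 1.0 over 36 tests, smallest possible p 0.1). The spread was widest in WT untreated cells, where library 3 had 32.5% and library 2 had 37.1%. The same library 3 had the widest gap between the medians of intragenic and gene-end sites, -1.75 on the log2 scale, while the other 9 libraries lay between -1.56 and -1.08. Within the 3664 genes that had both kinds of site, intragenic sites lay below gene-end sites by a median log2 gap of -1.23 ± 0.037 in KO untreated and -1.36 ± 0.328 in WT untreated cells (SD, n = 3 each; exact permutation p = 0.7, adjusted p = 1.0). In KO with acetate this within-gene gap was -1.39 ± 0.085, a difference of -0.165 from KO untreated cells (exact permutation p = 0.1, the smallest possible, adjusted p = 0.6).

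The gap between intragenic and intergenic medians was small and had opposite signs with and without acetate. It was -0.0093 and -0.019 in KO acetate, -0.016 and -0.022 in WT acetate, 0.032, 0.034 and 0.018 in KO untreated, and 0.035, 0.067 and 0.025 in WT untreated libraries, on the log2 scale. All 4 acetate libraries lay below 0 and all 6 untreated libraries above it. With acetate permuted within genotype the difference of -0.052 had p = 0.01, the smallest the exact permutation test can give, and its adjusted p was 0.36 over the 36 tests. WT untreated library 3, which shares the prefix of the acetate libraries, had 0.025, on the untreated side. No other untreated library carries that prefix, and in KO cells prefix and acetate cannot be told apart. Whether prefix bears on the sign of this gap was not tested.

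**Figure D1:**
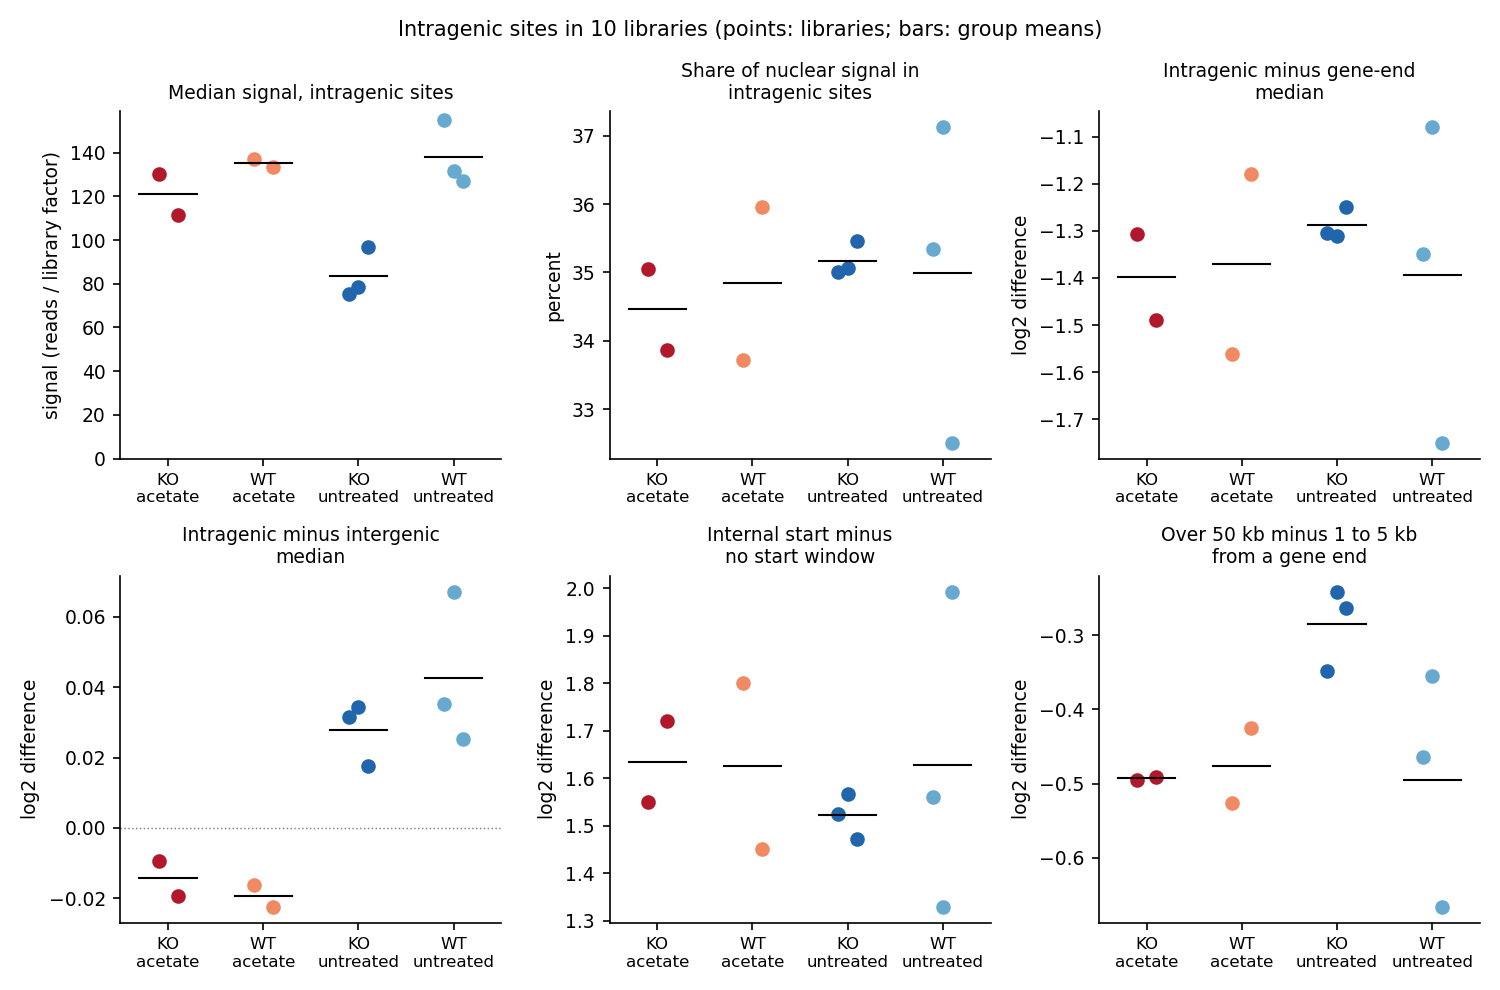
The panels show 6 measures of intragenic sites by library: median signal (reads divided by the library factor), share of nuclear signal (percent), and 4 gaps between medians (log2), in KO acetate, WT acetate, KO untreated and WT untreated libraries. Points are libraries and bars are group means; KO untreated libraries lie lowest in median signal, and the gap to intergenic sites is above 0 in all untreated and below 0 in all acetate libraries.

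The comparison of KO with WT untreated cells asks what losing pyruvate dehydrogenase does to open chromatin in Th17 cells. On the deposited scale most intragenic sites had less signal in KO cells: 14723 sites (87.6%) were lower and 1820 (10.8%) were higher (limma on log2(signal + 1), Benjamini-Hochberg adjusted p under 0.05 over all sites). Over all sites of the table, 89.6% were lower and 9.07% higher. The median log2 difference was -0.85 in intragenic sites and -0.84 over all sites. After cyclic loess, which sets the bulk of the sites to no difference, the median was 0.004 in intragenic sites and -0.001 over all sites, 1867 intragenic sites were higher and 435 lower, against 9.35% and 2.41% of all sites. The direction of most sites therefore rests on the scale, whereas all 1820 higher sites were higher on both scales, and the 435 lower ones were lower on both. Among ATAC1 libraries alone, 1776 sites were higher and 14592 lower. With sites below the median signal of the table left out, 7037 intragenic sites remained, of which 197 (2.8%) were higher and 6749 (95.9%) lower.

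No intragenic site had a log2 difference between -0.2 and 0.2 in this comparison on the deposited scale, where the values nearest to 0 were -0.21 and 0.32. With acetate, 8274 sites lay in that range for KO against WT. At an unadjusted p under 0.05, 16548 of the 16800 sites passed in the untreated comparison and 475 in the comparison with acetate. The site identifiers begin with DBS, which no source used here explains, nor does any say how the deposited sites were selected. If they were selected on a difference between these same untreated libraries, no comparison that uses those libraries is independent of that choice. That includes the calls, the p-values and the shares by distance, host length and signal given below. The share of sites called describes this table and not the chromatin at large.

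**Figure D2:**
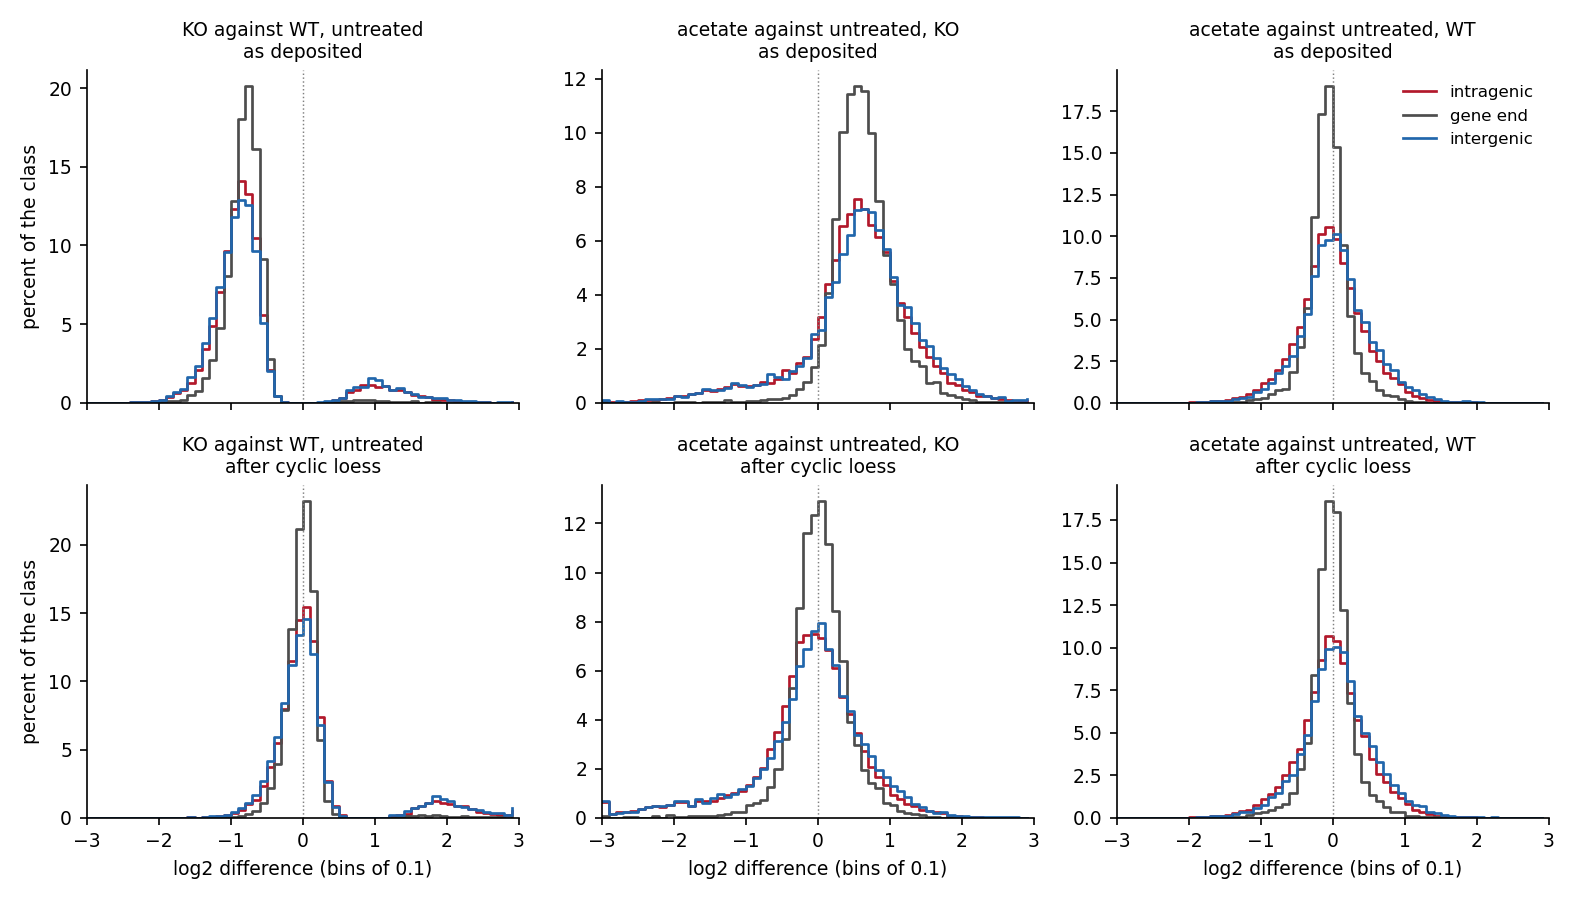
Distribution of log2 differences (bins of 0.1, the end bins also holding values beyond 3) as a percentage of each class of sites, for KO against WT untreated, acetate against untreated in KO, and acetate against untreated in WT, as deposited above and after cyclic loess below. The left panels show the empty range around 0 and the separate group of higher sites, which is larger for intragenic (10.8%) and intergenic (12.5%) than for gene-end sites (1.5%).

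Sites higher in KO cells were found deep inside long genes and at sites of low signal. Of sites 1 to 2 kb from a gene end 4.9% were higher, of those 5 to 10 kb away 8.8%, of those 20 to 50 kb away 11.7%, and of those over 100 kb away 22.6%. Host length went the same way, with 4.96% higher in hosts up to 20 kb, 9.92% in hosts of 50 to 100 kb and 26.7% in hosts over 500 kb. Position along the gene had a smaller range, 7.81% higher in the first 20% of the host and 12.9% in the last 20%. Signal had the widest range, 29.4% higher among the 3360 sites of lowest mean signal and 1.07% among the 3360 of highest. These properties move together: median signal in WT untreated cells was 166 at 1 to 2 kb and 105 beyond 100 kb, and their separate parts were not tested. In that lowest range of signal, 29.4% of intragenic, 10.9% of gene-end and 32.0% of intergenic sites were higher. The difference between classes in these shares was not tested. A separate measure per library was the gap in median signal, intragenic sites over 50 kb minus those 1 to 5 kb from a gene end. It was -0.284 ± 0.057 in KO untreated and -0.495 ± 0.158 in WT untreated cells (log2, SD, n = 3 each, exact permutation p = 0.1, the smallest possible, adjusted p = 0.6). This gap compares levels of signal by distance and not shares called or classes of sites.

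Lower sites after cyclic loess showed no such slope, with 2.04% at 1 to 2 kb and 1.41% beyond 100 kb. With acetate in KO cells the slope was found in the other direction: 11.1% of sites 1 to 2 kb from a gene end and 30.1% of those beyond 100 kb were lower with acetate after cyclic loess. The 2 comparisons share the KO untreated libraries.

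**Figure D3:**
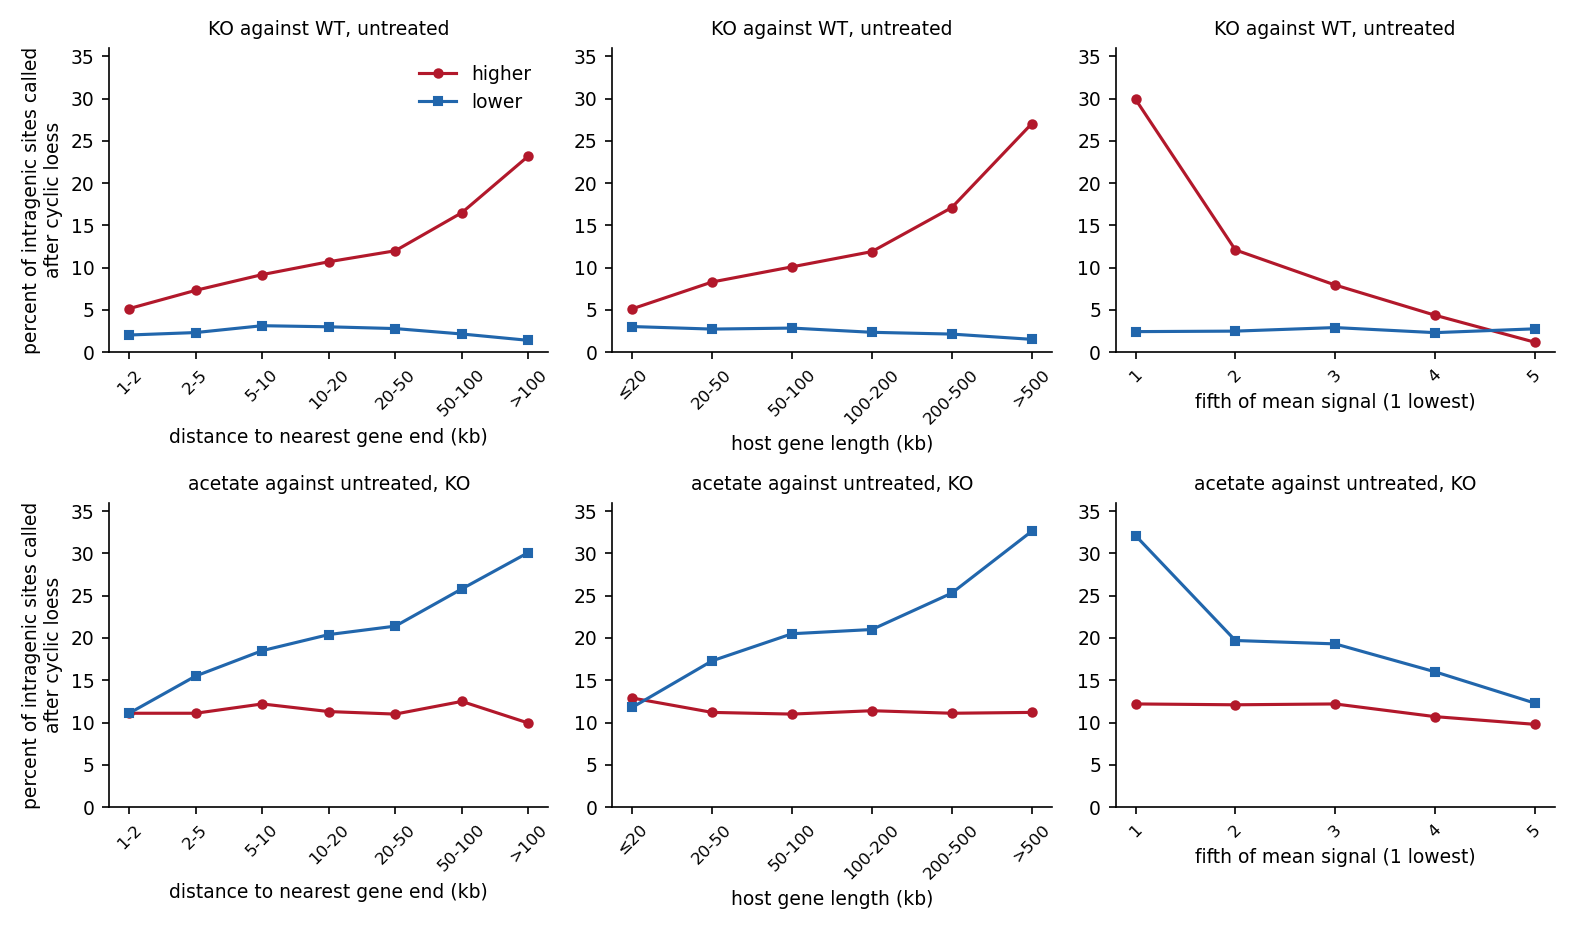
Percentage of intragenic sites called higher (circles) or lower (squares) after cyclic loess, by distance to the nearest gene end (kb), host gene length (kb) and class of mean signal (5 classes of 3360 sites), for KO against WT untreated above and acetate against untreated in KO below. Higher sites climb to 23.2% beyond 100 kb in the upper left panel, and sites lower with acetate climb to 30.1% in the lower left panel.

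Among well-covered sites, the largest increases in KO cells were 2.59 to 4.15-fold. They are sites called the same way on both scales, with mean signal at or above the median of all sites and groups that do not overlap, 1 per host; 180 higher and 166 lower sites met these terms. The site in Aqp4, a water channel of brain and kidney, had 315, 404 and 481 in KO untreated and 102, 124 and 66.3 in WT untreated libraries (log2 difference 2.05, SE 0.22, adjusted p = 6.72e-14). With acetate it had 142 and 143 in KO and 172 and 176 in WT libraries, and KO and WT did not differ past the threshold there (log2 -0.28, SE 0.27, adjusted p = 0.993 by limma). A site in Arhgap25, which switches off Rac in blood cells, had 281, 466 and 500 in KO and 164, 169 and 78.5 in WT untreated libraries (log2 1.63, SE 0.23, adjusted p = 2.16e-08). The site in Dmc1, a recombinase of meiosis, had 442, 500 and 611 in KO against 185, 165 and 165 in WT untreated libraries (log2 1.58, SE 0.21, adjusted p = 6.86e-10). Gfpt1, the first enzyme of the hexosamine pathway, held a site with 281, 343 and 495 in KO and 137, 132 and 99.5 in WT untreated libraries (log2 1.57, SE 0.22, adjusted p = 3.74e-09). KO with acetate had 95.5 and 101 there, and the lower of these lay below every WT untreated library.

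The other sites of this kind were 2.59 to 2.87-fold higher. They lay in Alk, a receptor tyrosine kinase, Fhod3, a formin that builds actin filaments, Stk33, a protein kinase, Aven, an inhibitor of apoptosis, and Pag1, an adaptor that brings the kinase Csk to the T cell receptor. At the Fhod3 site, KO untreated libraries had 221, 312 and 342 and WT untreated libraries 111, 105 and 95.1, while the acetate libraries of both genotypes lay between 281 and 354. At the Alk site, 333 kb from the nearest gene end, KO untreated libraries had 256, 293 and 352 and WT untreated libraries 86.2, 90.4 and 140. That KO and WT untreated libraries do not overlap at these sites was a term of their choice.

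The largest decreases were chosen on the same terms. That they were lower on both scales, and so beyond the shift of the table, was a term of their choice. A site in Pecam1, an adhesion receptor of endothelium and leukocytes, had 57.6, 54.2 and 60.3 in KO untreated and 300, 244 and 263 in WT untreated libraries. Its log2 difference was -2.21 (SE 0.21, adjusted p = 3.22e-16) as deposited and -1.36 (adjusted p = 2.09e-06) after cyclic loess. The site in Ubash3b, a phosphatase that restrains T cell receptor signalling, had 58.7, 47.6 and 55.6 in KO and 231, 206 and 151 in WT untreated libraries (log2 -1.83, SE 0.22, adjusted p = 1.42e-11). It had 293 and 252 in KO with acetate and 385 and 303 in WT with acetate. A site in Grk5, a kinase that turns off active receptors coupled to G proteins, had 49.4, 49.5 and 60.3 in KO and 222, 214 and 179 in WT untreated libraries (log2 -1.93, SE 0.22, adjusted p = 1.54e-12). At all 3 sites the KO untreated libraries lay below every other library.

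The other 7 decreases of this kind ran from -2.01 to -1.78 on the log2 scale. They lay in Als2cl, in Drd3, a dopamine receptor, in Ppp2r1b, a scaffold of protein phosphatase 2A, in Qser1, in Nsmce2, a SUMO ligase that acts in DNA repair, in Dop1b, and in Glb1, the lysosomal β-galactosidase. Their adjusted p after cyclic loess ran from 1.67e-05 to 0.00372. At the Ppp2r1b site WT untreated library 3 had 281 while libraries 1 and 2 had 578 and 511, and KO untreated libraries had 91.6, 133 and 131. At the Qser1 site KO untreated libraries were spread from 28.0 to 70.9, and the lowest WT untreated library had 132.

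**Figure D4:**
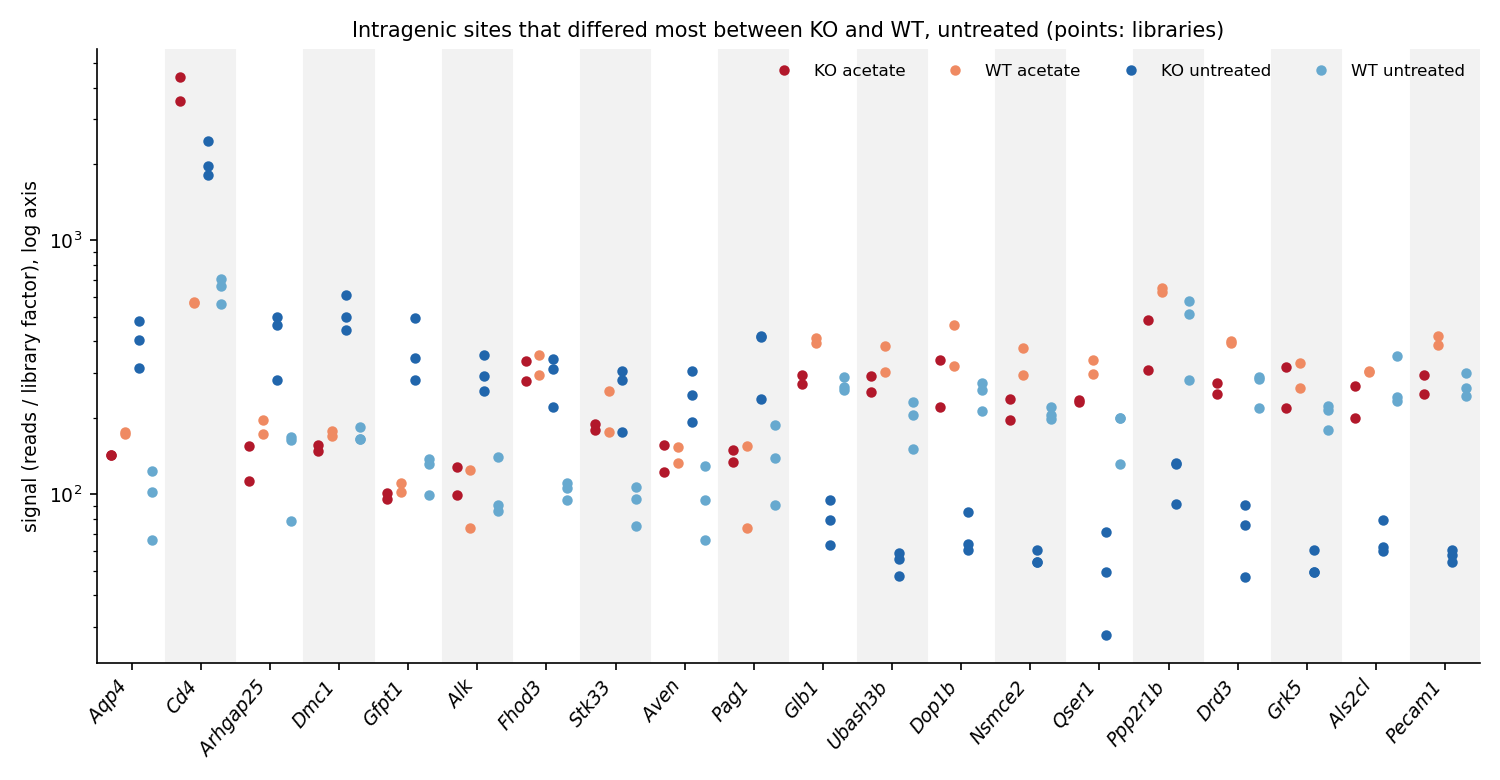
Signal (reads divided by the library factor, log axis) of the 20 named sites in each library, with increases in KO untreated cells on the left and decreases on the right; each point is a library and colours mark the 4 groups. At sites such as Pecam1, KO untreated libraries (54.2 to 60.3) lie below all others, and at Cd4 both KO groups lie above both WT groups.

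Cd4, which encodes the co-receptor of helper T cells, was the only host with sites called between KO and WT in acetate cells: its 4 sites were higher in KO cells with and without acetate. Its strongest site, chr6:124885264-124885464, had 4398 and 3543 in KO with acetate against 572 and 568 in WT with acetate. Untreated, it had 1963, 1816 and 2458 in KO against 706, 561 and 660 in WT untreated libraries. The log2 differences were 2.79 (SE 0.20, adjusted p = 5.88e-27) with acetate and 1.69 (SE 0.16, adjusted p = 2.03e-16) untreated. At chr6:124882242-124882442 the signal was 610 and 560 in KO with acetate against 36.9 and 40.0 in WT with acetate. Untreated, it was 392, 384 and 544 in KO against 33.7, 33.2 and 27.6 in WT untreated libraries. At chr6:124879835-124880035 it was 403, 374 and 499 in KO and 28.7, 20.1 and 5.53 in WT untreated libraries, a 26.4-fold difference. At chr6:124880802-124881002, KO untreated libraries had 116, 82.2 and 144 and WT untreated libraries 3.75, 9.04 and 5.53. At none of the 4 did the genotypes overlap. KO cells alone carry CD4-Cre, so the transgene and the loss of pyruvate dehydrogenase cannot be told apart at this gene.

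Most hosts had sites of 1 direction on the deposited scale, though the 3135 hosts with a single site could not have had both. In untreated cells 4865 hosts had only lower sites, 727 had only higher sites, 637 had both and 54 had none called. Of 633 hosts with a higher intragenic site and a site at the gene's own end, 619 had a gene-end site that was lower and 22 had one that was higher. Of all gene-end sites, 98.0% were lower and 1.5% higher, but those shares count sites and not hosts. After cyclic loess, 645 hosts had a higher intragenic site and a gene-end site. No gene-end site was called at 618 of them, while 23 had one that was higher and 4 had one that was lower. Among all gene-end sites 1.64% were higher and 1.03% lower on that scale. The difference between these hosts and all gene-end sites was not tested.

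Several of the hosts with the most sites encode regulators of T cells. Bach2, a repressor that holds back effector differentiation, held 59 sites, Foxp1, a factor of T cell quiescence, 48, Ets1, a factor needed for T cell development, 39, and Maml2, a co-activator of Notch, 37. Prkch and Prkcq, protein kinases C that act below the T cell receptor, held 35 each, as did Zmiz1, a co-factor of Notch1. Ikzf1, which encodes Ikaros, Inpp4b, a phosphoinositide phosphatase, and Septin9, a cytoskeletal GTPase, held 34 each. Of these 390 sites, 379 were lower in KO untreated cells and 6 were higher on the deposited scale, and 15 were lower and 6 higher after cyclic loess. Over all sites 89.6% were lower and 9.07% higher as deposited, and 2.41% lower and 9.35% higher after cyclic loess.

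Prkcq stood lowest of the 10 hosts, with a median log2 difference of -1.06 and 6 of its 35 sites lower after cyclic loess. Its most changed site had 41.1, 31.8 and 26.0 in KO and 142, 100 and 130 in WT untreated libraries (log2 -1.89, SE 0.26, adjusted p = 1.13e-09). In Zmiz1 sites of both directions stood far apart. Its most changed site had 7.13, 16.8 and 5.91 in KO against 87.4, 55.3 and 32.1 in WT untreated libraries (log2 -2.45, SE 0.33, adjusted p = 1.85e-09), while another was higher by a log2 of 2.25. Inpp4b was led by a higher site, with 54.8, 43.9 and 87.5 in KO and 8.74, 16.1 and 19.9 in WT untreated libraries (log2 2.00, SE 0.39, adjusted p = 7.61e-06). The brightest site of Bach2 had 557, 686 and 673 in KO and 1120, 912 and 1058 in WT untreated libraries, a log2 difference of -0.69 as deposited and of -0.05 after cyclic loess, so its direction rested on the scale.

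**Figure D5:**
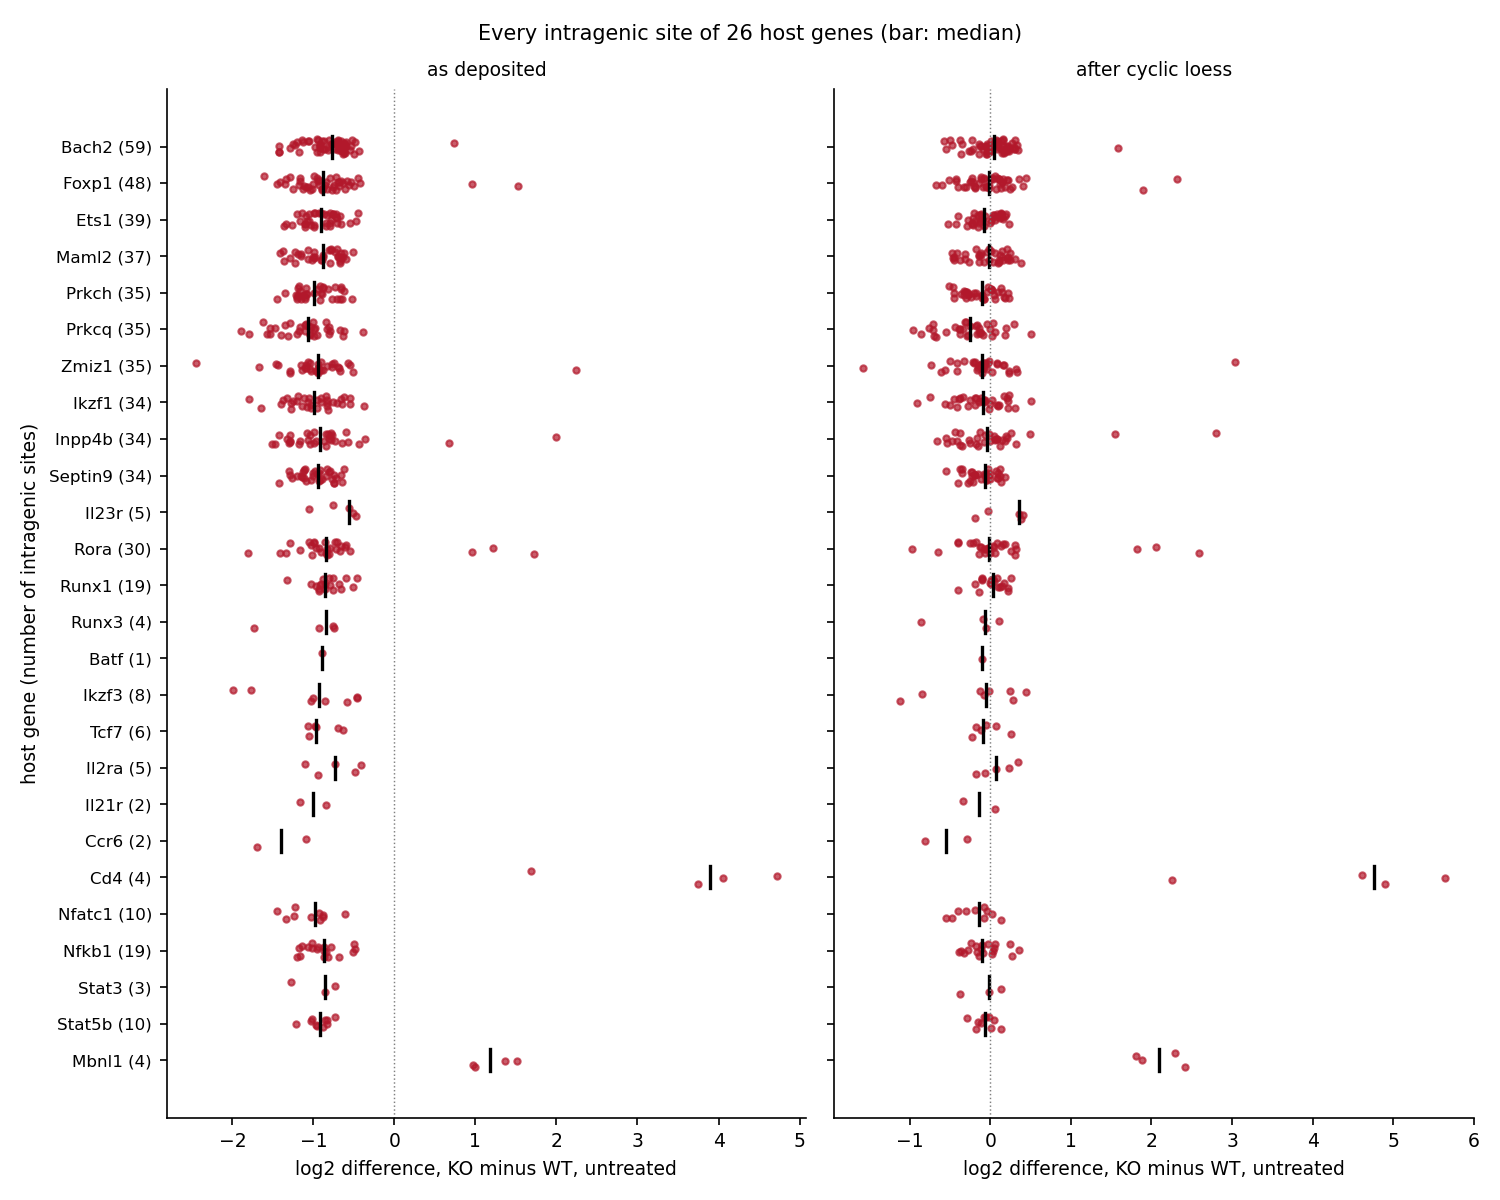
Log2 difference between KO and WT untreated cells of every intragenic site (points) in 26 host genes, with the number of sites in parentheses and a bar at the median, as deposited on the left and after cyclic loess on the right. Cd4 and Mbnl1 have all their sites above 0 on both scales, and the other hosts have a median below 0 on the left. On the right these medians lie closer to 0, with Ccr6 still the lowest and Il23r the highest of them.

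The loci of the Th17 programme followed the bulk of the table. Rora, a nuclear receptor that drives Th17 differentiation, held 30 sites, 27 lower and 3 higher in KO untreated cells, against 89.6% and 9.07% of all sites. Its median log2 difference was -0.84, and 1 site was lower and 3 higher after cyclic loess. Of the 5 sites of Il23r, the IL-23 receptor subunit of Th17 cells, 4 were lower as deposited and 0 after cyclic loess, and the most changed had 63.6, 83.1 and 100.5 in KO against 202, 191 and 125 in WT untreated libraries. The 2 sites of Ccr6, a chemokine receptor of Th17 cells, had the lowest host median among the T cell loci described here, -1.40. One of them was still lower after cyclic loess, with 19.7, 16.8 and 21.3 in KO and 76.2, 59.3 and 59.7 in WT untreated libraries (adjusted p = 0.0196 after cyclic loess).

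Other fixed loci divided in the same way, where 89.6% of all sites were lower as deposited and 2.41% after cyclic loess. In Ikzf3, the gene of Aiolos, 7 of 8 sites were lower as deposited and 2 after cyclic loess. Its most changed site had 44.4, 36.4 and 33.1 in KO and 172, 143 and 147 in WT untreated libraries (log2 -2.00, SE 0.23, adjusted p = 2.13e-12). All 19 sites of Runx1, 4 of Runx3, 19 of Nfkb1, 10 of Nfatc1, 10 of Stat5b, 6 of Tcf7, 5 of Il2ra, 3 of Stat3, 2 of Il21r and the only site of Batf were lower as deposited, and none of these sites was called after cyclic loess. Mbnl1, a splicing regulator, had 4 sites that were all higher in KO untreated cells on both scales. Its most changed site had 70.7, 68.2 and 105 in KO and 33.7, 27.1 and 22.1 in WT untreated libraries (log2 1.51, SE 0.30, adjusted p = 1.18e-05), and KO with acetate had 41.8 and 48.3 there.

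Gene lists of T cell biology and metabolism held mostly sites that went with the bulk. For comparison, 89.6% of all sites were lower and 9.07% higher as deposited, and 2.41% were lower and 9.35% higher after cyclic loess. The median over all sites was -0.84 as deposited and -0.001 after cyclic loess. In the Th17 programme, 19 of 25 genes held 125 sites, of which 121 were lower and 3 higher as deposited, and 7 lower and 3 higher after cyclic loess (medians -0.86 and -0.01). Lif, a cytokine of the IL-6 family, held the site with the smallest p, with 191, 208 and 261 in KO and 743, 677 and 504 in WT untreated libraries (log2 -1.53, SE 0.20, adjusted p = 2.21e-10). Naive and stem-like T cell factors held 255 sites, 246 lower and 5 higher, or 7 lower and 5 higher after cyclic loess. Lef1, a factor of naive T cells, was lower at a site with 53.7, 64.5 and 72.1 in KO against 196, 203 and 145 in WT untreated libraries (log2 -1.49, SE 0.23, adjusted p = 3.39e-08).

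Of 202 sites in genes of T cell receptor and co-stimulation signalling, 194 were lower and 7 higher, or 10 lower and 7 higher after cyclic loess. For all sites the shares were 89.6% lower and 9.07% higher, or 2.41% and 9.35% after cyclic loess. The 7 higher sites include the 4 of Cd4. Lymphoid transcription factors had 180 of 195 sites lower and 8 higher, or 5 lower and 8 higher after cyclic loess. Among them Runx2 was lower at a site with 81.7, 140 and 122 in KO and 435, 450 and 213 in WT untreated libraries. Aff3, a nuclear factor of lymphoid cells, was higher at a faint site with 61.4, 82.2 and 85.1 in KO and 7.49, 8.04 and 11.1 in WT untreated libraries (log2 2.97, SE 0.40, adjusted p = 9.67e-10). Genes of Th1, Th2 and regulatory T cells had 55 of 59 sites lower and 4 higher, and after cyclic loess 0 lower and 4 higher.

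Most sites in metabolic genes were lower as deposited. Of all sites 89.6% were lower and 9.07% higher, or 2.41% and 9.35% after cyclic loess. For pyruvate, citrate, acetyl-CoA and lipid synthesis, 32 of 34 sites were lower and 2 higher, or 1 lower and 2 higher after cyclic loess, and for glycolysis 51 of 53 were lower and 2 higher, or 0 lower and 2 higher. A site in Hk1, a hexokinase that starts glycolysis, was higher with 297, 270 and 300 in KO against 151, 136 and 116 in WT untreated libraries (log2 1.11, SE 0.22, adjusted p = 7.83e-06). Histone acetyltransferases and deacetylases had 69 of 82 sites lower and 11 higher, or 4 lower and 11 higher after cyclic loess. Sites in a pair of deacetylase genes moved apart. A site in Hdac9 had 135, 157 and 225 in KO and 48.7, 58.3 and 44.2 in WT untreated libraries (log2 1.73). A site in Hdac4 had 15.4, 15.9 and 18.9 in KO and 93.7, 86.4 and 43.1 in WT untreated libraries (log2 -2.02).

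Genes not tied to T cells held few sites. Over all deposited sites, 9.07% were higher in KO untreated cells and 89.6% lower, and among intragenic sites of any gene 26.7% were higher in hosts over 500 kb and 29.4% at the lowest signal. Cell adhesion and synaptic genes of long loci had 20 sites, 10 higher and 10 lower, and 10 higher and 0 lower after cyclic loess (medians 0.07 and 0.88). In Cntnap2, a neuronal adhesion gene with a body of 2241 kb, a faint site had 76.8, 66.3 and 88.7 in KO and 15.0, 17.1 and 9.95 in WT untreated libraries. B cell and myeloid genes had 22 sites, 9 higher and 11 lower, and 10 higher and 0 lower after cyclic loess. In Pax5, the B cell commitment factor, a site had 89.9, 78.5 and 123 in KO and 26.2, 33.2 and 15.5 in WT untreated libraries (log2 1.96, SE 0.32, adjusted p = 1.91e-07). In Blk, a kinase of B cells, another had 51.0, 69.1 and 91.0 in KO and 12.5, 13.1 and 15.5 in WT untreated libraries. With acetate both lay between 9.23 and 31.7 in all 4 libraries. No test compared these lists with other sites.

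Sites at internal starts behaved like gene ends in level and direction. Their median signal was 356 in KO with acetate, 403 in WT with acetate, 229 in KO untreated and 409 in WT untreated cells, against 115, 129, 79.3 and 132 in the same groups at the 15931 intragenic sites in no start window. In untreated cells 752 of the 758 were lower and 2 higher (0.264% higher), while 11.4% of sites in no start window were higher. After cyclic loess 6 were lower and 4 higher. The gap between the medians of both kinds was 1.52 ± 0.047 in KO untreated and 1.63 ± 0.337 in WT untreated cells (log2, SD, n = 3 each; exact permutation p = 0.8, adjusted p = 1.0). A site's centre lay a median of 45 bp before the start (-45), and 559 of the 758 sites contained the start itself. The share of higher sites also fell with signal among intragenic sites at large. It was 4.11% in class 4 and 1.07% in class 5, the classes of highest mean signal, each of 3360 sites. The separate parts of signal and of lying at a start were not tested.

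Start windows with an open intragenic site were richer in CpG than start windows at large. They held a median of 20 CpG in 300 bases, against 7 over all 32851 windows, and 52.4% had 20 or more, against 26.5%. Median signal was 149 in KO and 266 in WT untreated cells at windows with 0 to 4 CpG, and 262 in KO and 477 in WT untreated cells at windows with 20 or more. The median log2 difference was nearly level across the same classes, between -0.86 and -0.78. The GC box stood in 62.1% of these windows and 35.7% of all windows, and the ETS core in 29.4% and 14.9%. The CCAAT box was in 32.2% and 37.4%, the RUNX motif in 13.7% and 16.8%, the AP-1 motif in 6.46% and 7.81%, and the CRE motif in 3.17% and 1.79%. A match describes the letters of a window and no binding.

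The sites whose sequences are given first differed in level and direction. Fam214b had 755, 979 and 919 in KO and 1309, 1077 and 1398 in WT untreated libraries. Its log2 difference was -0.51 as deposited and 0.08 after cyclic loess, so the direction was not the same on both scales. Satb1, a chromatin organiser of T cells, was lower on both, with 206, 182 and 261 in KO and 544, 439 and 552 in WT untreated libraries (log2 -1.25, SE 0.20, adjusted p = 1.88e-07). Plaur, the urokinase receptor, had 65.8, 68.2 and 70.9 in KO and 206, 162 and 219 in WT untreated libraries (log2 -1.49, SE 0.22, adjusted p = 1.09e-08). Acetate libraries lay between 211 and 246 in KO and at 320 and 282 in WT cells. Il1rn, the antagonist of the IL-1 receptor, was higher in KO, with 74.0, 57.0 and 88.7 against 30.0, 24.1 and 21.0 in WT untreated libraries (log2 1.50, SE 0.31, adjusted p = 1.42e-05).

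In all, 7 intragenic sites overlapped a miRNA hairpin of RefSeq. The brightest lay on Mir7687 in Gse1, with 449, 563 and 506 in KO and 889, 810 and 1038 in WT untreated libraries. The site on Mir5104 in Zc3h12d, a regulator of mRNA stability in lymphocytes, had 41.7, 30.8 and 40.2 in KO and 81.2, 74.3 and 67.4 in WT untreated libraries. All 7 were lower as deposited, as were 89.6% of all sites, and 1, on Mir7056 in Ptpn5, was still lower after cyclic loess (log2 -0.85, adjusted p = 0.0459).

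Between KO and WT cells with acetate few intragenic sites were called. Only the 4 sites of Cd4 were higher (0.0238% of the sites, against 0.0227% of all sites) and 0 were lower by limma, with 475 sites at an unadjusted p under 0.05, and the median log2 difference was -0.16. Cyclic loess gave the same 4 and 0. Without WT acetate library 2, 15 were higher, and with sites of low signal left out, 1. With 2 libraries per group and pooled spread, a site short of the threshold is not shown to be equal in both genotypes.

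Acetate against untreated in KO cells gave mostly higher sites on the deposited scale. There were 8623 sites higher with acetate (51.3%) and 1279 lower (7.61%), against 54.6% and 5.94% of all sites, and the median log2 difference was 0.59. After cyclic loess 1914 were higher and 3344 lower, a split that ran the other way, with 11.5% and 16.7% over all sites. Without KO acetate library 1, 4442 were higher and 1001 lower. Of the 7037 sites above the filter on low signal, 3770 were higher (53.6%) and 145 lower (2.06%). At internal starts 490 sites were higher and 0 lower as deposited, and 63 higher and 42 lower after cyclic loess. All these counts share the KO untreated libraries with the genotype comparison, so any selection of sites on that comparison would bear on them.

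A site in Rab11fip4, an effector of recycling endosomes, had 479 and 386 with acetate and 66.4, 84.1 and 86.3 untreated in KO cells (log2 2.44, SE 0.24, adjusted p = 3.18e-16). Ubash3b, Qser1 and Grk5, lower in KO untreated cells, were among the other leading increases, with log2 differences of 2.32, 2.31 and 2.30. The sites of Gfpt1, Dmc1 and Arhgap25, higher in KO untreated cells, were lower with acetate by log2 differences of -1.87, -1.75 and -1.60. These comparisons share the KO untreated libraries with the comparison of genotypes. A site in Fndc1 had 163 and 98.0 with acetate and 405, 404 and 519 untreated in KO cells (log2 -1.79, SE 0.25, adjusted p = 2.61e-09). Cdkal1, which modifies a tRNA, held a site with 114 and 75.4 with acetate and 281, 304 and 382 untreated in KO cells (log2 -1.77, SE 0.25, adjusted p = 1.56e-09).

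Acetate in WT cells gave few called intragenic sites. There were 502 sites higher with acetate (2.99%) and 693 lower (4.12%), against 2.91% and 3.02% of all sites, and the median log2 difference was -0.03. After cyclic loess 780 were higher and 934 lower, against 4.43% and 4.07%. Without WT acetate library 1 the counts were 46 higher and 84 lower, without WT acetate library 2 they were 127 and 327, without WT untreated library 1 they were 262 and 176, and without WT untreated library 3 they were 675 and 1375. Among ATAC2 libraries, which leave 1 WT untreated library, 1098 were higher and 233 lower. Of the 7037 sites above the filter on low signal, 79 were higher and 136 lower. The counts thus rest on single libraries.

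Among sites called alike on both scales, with mean signal at or above the median and groups that do not overlap, Fhod3 held the largest increase with acetate in WT cells. It had 354 and 295 in WT acetate libraries against 111, 105 and 95.1 in WT untreated ones (log2 1.63, SE 0.24, adjusted p = 4.41e-07). Nr1i2, a nuclear receptor for foreign compounds, had 191 and 223 with acetate and 99.9, 82.4 and 70.8 untreated in WT cells (log2 1.29, SE 0.25, adjusted p = 0.000185). Pde4d, a phosphodiesterase that degrades cAMP, had 311 and 305 with acetate and 132, 145 and 106 untreated in WT cells, and 275 and 225 with acetate against 47.7, 89.7 and 115 untreated in KO cells. Atp8b1, a flippase of membrane lipids, and Stk33 completed the increases, at 2.37-fold and 2.30-fold. The largest decrease among such sites was in Ccm2, a scaffold of endothelial signalling, with 76.9 and 82.8 with acetate and 392, 257 and 232 untreated in WT cells (log2 -1.83, SE 0.25, adjusted p = 6.60e-08). Mkln1, a subunit of a ubiquitin ligase, had 95.4 and 75.1 with acetate and 338, 305 and 214 untreated in WT cells, and 60.5 and 73.9 with acetate against 162, 145 and 189 untreated in KO cells. Lcn4, Sh2d3c, an adaptor of integrin signalling, and Clec16a, a regulator of autophagy, followed with log2 differences of -1.67, -1.40 and -1.34.

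The interaction asks whether acetate moved a site differently in KO and WT cells. It was positive at 3243 intragenic sites (19.3%) and negative at 736 (4.38%), against 19.5% and 3.61% of all sites. The median log2 interaction was 0.67 in intragenic sites and over all sites as deposited, and -0.027 and -0.001 after cyclic loess. After cyclic loess the interaction was positive at 16 and negative at 1495, against 0.139% and 7.36%. Of the 7037 sites above the filter on low signal, it was positive at 968 and negative at 58. The counts rest on single libraries. They also share the untreated libraries with the genotype comparison, so any selection of the deposited sites on that comparison would bear on them. Without KO acetate library 1 or 2 there were 56 or 1694 positive and 200 or 276 negative sites, and without WT acetate library 1 or 2 there were 1298 or 538 positive and 421 or 268 negative sites. Without KO untreated library 1, 2 or 3 there were 281, 756 or 4763 positive and 308, 293 or 477 negative sites, and without WT untreated library 1, 2 or 3 there were 542, 5527 or 5370 positive and 371, 932 or 834 negative sites. Among sites positive on both scales was one in Slc3a2, the CD98 heavy chain that carries amino acid transporters to the membrane. It had 350 and 303 in KO with acetate against 305 and 341 in WT with acetate. Untreated, it had 109, 103 and 151 in KO against 333, 304 and 397 in WT untreated libraries (interaction log2 1.53, SE 0.34, adjusted p = 0.00263). A site in Pced1b was negative, with 94.6 and 113 in KO with acetate against 138 and 166 in WT with acetate. Untreated, it had 160, 282 and 254 in KO against 119, 161 and 48.6 in WT untreated libraries (interaction log2 -1.74, SE 0.44, adjusted p = 0.0139).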

How the data were processed

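ATAC-seq was measured in 10 libraries, grouped by their labels. The authors deposited 1 table with a signal per site and library. The submitters' processing notes name BWA 0.7.16a, DiffBind 3.6.1, Genrich, DESeq, DESeq2 and Picard 2.10.9, and also deepTools 3.5.1 and FastQC 0.11.5, on GRCm38, with no roles stated. From the values, each library's signal comes out as whole reads divided by 1 factor (tolerance 0.001), and no source used here states how it was made. No count test was run.

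Sites were assigned by position to protein-coding genes, and start windows came from RefSeq (GRCm38.p6). Log2(signal + 1) was fitted with limma 3.58.1 (R 4.3.3, trend and robust) with a mean per group over all 10 libraries, and p-values were adjusted over all 39657 sites. The pooled spread lets a group of 2 be tested. The fit was tested on simulated data in which only a small set of intragenic sites changed. Those data held no shift of most sites, so that test does not cover the untreated comparison on the deposited scale. Measures per library were compared with exact permutation tests, two-sided, within treatment or genotype for the combined comparisons, and adjusted over 36 tests. Both gaps within intragenic sites among these were added after seeing the data. The other tools were scipy 1.17.1, matplotlib 3.10.9, pandas 2.3.3 and numpy 2.4.6 in Python 3.11.15.

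Named sites were the 10 largest rises and 10 largest falls for KO against WT untreated and 5 of each for the other comparisons, among sites called alike as deposited and after cyclic loess, with mean log2 signal at or above the median and groups that do not overlap, 1 per host. The 10 hosts with the most sites, chosen T cell loci, and the sites with the smallest p in each gene list were also named. Members and lists were chosen with earlier results of these data known. Alternatives were other scalings, a pseudocount of 5, a filter on low values, sites over 5 kb from gene ends, libraries of 1 prefix, a replicate block and leaving out each library. A fit on the block's libraries without the block, and counts without sites in start windows, were chosen after seeing the data. Results for some genes that the rules name are not reported here.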

Additional observations from a re-analysis of the deposited data

Results flagged for a closer look

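At 30 named sites the change with acetate differed between KO and WT cells on the deposited scale by a test of the difference itself (limma interaction, adjusted p under 0.05 over all sites). On that scale the median log2 interaction was 0.67 in intragenic sites and over all sites, and the positive values below include this shift. After cyclic loess the median was -0.027 in intragenic sites. Only 16 intragenic sites were then positive, so not every positive call below held on that scale. Of the sites higher in KO untreated cells, the interaction was negative at Aqp4 (log2 -2.33), Arhgap25 (-2.11), Dmc1 (-1.77), Gfpt1 (-1.68), Stk33 (-1.62), Fhod3 (-1.53), Aven (-1.42) and Alk (-1.29), so acetate lowered them more, or raised them less, in KO than in WT cells. Cd4 was the exception, with a positive interaction of 1.10. Of the sites lower in KO untreated cells, the interaction was positive at Grk5 (1.77), Pecam1 (1.63), Als2cl (1.61), Ubash3b (1.50), Qser1 (1.44), Dop1b (1.33), Drd3 (1.31), Glb1 (1.28), Nsmce2 (1.24) and Ppp2r1b (1.17).

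Among sites named for acetate, the interaction was positive at Rab11fip4 (1.59), Lcn4 (1.19), Ccm2 (1.11), Atp8b1 (1.00), Clec16a (0.99) and Sh2d3c (0.94), and negative at Nr1i2 (-1.35) and Fndc1 (-0.90). A further site in Pecam1 (1.70), the site in Slc3a2 (1.53) and the site in Pced1b (-1.74) were named for the interaction itself. Over all intragenic sites it was positive at 3243 and negative at 736, counts that depend on the scaling. Sites named for their genotype difference share the KO and WT untreated libraries with the interaction, so their signs are not independent of how they were chosen. The counts over all intragenic sites share these libraries too, so any selection of the deposited sites on the untreated difference would bear on them. All acetate libraries carry the ATAC2 prefix and all KO untreated libraries the ATAC1 prefix, so prefix and treatment cannot be told apart in KO cells.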

How the results depend on the processing

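Scaling moved most counts of intragenic sites. For KO against WT untreated, lower sites numbered 435 with cyclic loess, 641 with median-of-ratios and 935 with total signal scaling. For acetate in KO, higher sites numbered 1914, 2319 and 2808 and lower sites 3344, 3129 and 2614 under the same 3 scalings. The interaction was positive at 16, 28 and 33 and negative at 1495, 1315 and 1134 sites. For acetate in WT, 780 were higher with cyclic loess. With a filter on low values, which leaves fewer sites to test, counts of higher and lower sites were 197 and 6749 for KO against WT untreated, 3770 and 145 for acetate in KO, 79 and 136 for acetate in WT, and 968 and 58 for the interaction, and 1 site was higher in KO with acetate. In ATAC2 libraries alone acetate in WT gave 1098 higher and 233 lower sites, and 1 site was lower in KO with acetate.

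Same-numbered libraries deviated together at most weakly (r from -0.018 to 0.219, against -0.219 to 0.06 for pairs of different numbers). Deviations were taken from the group mean, so those of the WT acetate libraries mirror each other. WT untreated library 2 had 0.219 with WT acetate library 2 and therefore -0.219 with WT acetate library 1. The ranges are thus not independent of each other. No label ties the numbers across groups, so they were not taken to pair libraries, and a pairing was not tested further. With the replicate block, which leaves out the libraries whose number is in no title, KO with acetate had 10 higher and 1 lower sites, acetate in KO had 834 lower, acetate in WT had 1075 higher and 2053 lower, and the interaction was positive at 7844 and negative at 467. The same libraries without the block gave 615 higher and 1323 lower sites for acetate in WT, so the block raised both counts. The causes were not tested.

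Leaving out each library gave 1677 to 1785 higher and 13129 to 14852 lower sites for KO against WT untreated, and 4 to 15 higher and 0 lower with acetate. It gave 4442 to 9355 higher and 865 to 1219 lower for acetate in KO, 46 to 675 higher and 84 to 1375 lower for acetate in WT, and 56 to 5527 positive and 200 to 932 negative interactions. In the library measures, the gap to gene ends differed by -0.057 to 0.134 for genotype and -0.139 to 0.052 for acetate, and the gap to intergenic sites by -0.0092 to 0.0013 and -0.056 to -0.046. The share differed by -0.719 to 0.459 percentage points for genotype and -1.05 to 0.125 for acetate, and the within-gene gap by -0.046 to 0.140 and -0.178 to 0.0085. For the gap between internal starts and sites in no start window, the genotype difference ran from -0.135 to 0.043 and the acetate difference from -0.031 to 0.147. The genotype difference was 0.043 without WT untreated library 3 and 0.039 without WT acetate library 1, and the acetate difference was -0.019 without WT untreated library 2 and -0.031 without WT acetate library 1, all reversed in sign. With sites over 5 kb from gene ends the genotype difference was 0.00854 in the share and 0.0043 in the gap to intergenic sites, also reversed, and neither passed a test.

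Of 1704 values at named sites under the alternatives, 1605 kept direction and call, 93 lost the call and 6 reversed. Most losses came with the scalings. Of 125 named results, 91 kept direction and call with cyclic loess, 95 with median-of-ratios and 98 with total signal. The calls lost numbered 32, 28 and 25. Sites named as the largest rises and falls had to be called alike after cyclic loess, so their agreement there was a term of their choice. Fam214b was 0.079 with cyclic loess, 0.29 with median-of-ratios and 0.22 with total signal. Iffo2 was 0.19 with median-of-ratios and 0.12 with total signal, and Stat5b 0.0057 with cyclic loess. The shallowest library, WT acetate library 1, had a median of 44.5 reads per site, which limits faint sites most.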
